A study of Saccharomyces cerevisiae with 16 samples.

Results

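The comparison described here set esa1-L254P cells against wild-type cells of Saccharomyces cerevisiae, both held in G1 and both exposed to the alkylating agent methyl methanesulfonate (MMS). It consisted of 2 of the 16 two-colour arrays of the series, chosen by their titles, and was described over all 4073 genes that could be named. The tested strain carried esa1-L254P::NatRMX4, a point allele of ESA1 with a nourseothricin resistance cassette, and the other strain was labelled wild type. Both strains were of the W303 background. Cells were held in G1 with the mating pheromone alpha factor for 1 h and then kept in 0.05% MMS for 1 h, or left untreated in the arrays used for comparison. A further comparison of the strains used cells in S phase, held with alpha factor for 2 h before release, also with 0.05% MMS for 1 h. The series carried 8 comparisons of 2 arrays each: the strains against each other in G1 and S, with and without MMS, and MMS against no treatment in each strain and phase. On array 1 of the comparison the esa1-L254P RNA carried Cy5 and on array 2 it carried Cy3. Whether the arrays came from separate cultures was not given, so the p-values measure the spread between arrays, which may be technical.

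Esa1 is the catalytic subunit of NuA4, an acetyltransferase complex that modifies histone H4, H2A and the variant Htz1 at active promoters. NuA4 is required for normal transcription of many housekeeping genes, among them those of ribosomal proteins, and takes part in the repair of broken DNA. MMS methylates DNA bases. The lesions are removed by base excision repair, or are tolerated at replication forks by translesion polymerases that copy past them. By its title the study concerned NuA4 in that tolerance pathway, and the comparison bears on how the transcripts of the mutant differ from those of wild type once damage has been inflicted outside S phase.

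All values below are log2 ratios of esa1-L254P over wild type in MMS-treated G1 cells, unless another comparison is named, so that a value above 0 means more transcript in esa1-L254P. Where both arrays are given, array 1 comes before array 2, and the mean carries a standard error after the ± sign. A gene was called at an adjusted p under 0.05, from a limma fit over the 16 arrays with Benjamini-Hochberg adjustment over the 4073 genes. A second fit held a block for the replicate number, and with it the dye each strain carried, and is named where it is used.

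The 2 arrays of this comparison stood apart from one another. As deposited, before array 2 was turned, they correlated at 0.21 across the 4073 genes, and dye-swapped arrays without a dye effect would correlate below 0. The deviation between them, taken as 0.5 times the difference of the turned values, correlated at 0.88 with a dye term taken from the 14 other arrays. After that dye term was subtracted the turned arrays correlated at 0.40, and 2823 genes lay on the same side of 0 on both arrays, against 2206 before. Many genes far from 0 lay on opposite sides of it on the turned arrays, and so had one sign on both as deposited. On array 1, 341 genes lay above 1, and 277 of these lay below 0 on array 2. Only 24 of the 341 were called. On array 2, 41 genes lay above 1, of which 27 were called and 5 lay below 0 on array 1. Below -1 there were 4 genes on array 1 and 190 on array 2, and 184 of the 190 lay above 0 on array 1. Of the 277 genes above 1 on array 1 and below 0 on array 2, 65 encoded cytosolic ribosomal proteins, 17 the proteasome and polyubiquitin and 14 enzymes of glycolysis and fermentation. These groups are described further on with both arrays given.

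The turning of the second arrays was checked on 2 genes. HIS3 lay at -2.30 and -2.58 in this comparison, and in the other comparisons of the strains it lay at -1.55 and -2.23 (untreated G1), -1.43 and -0.80 (S with MMS) and -2.33 and -3.12 (untreated S). ADE2 lay at 1.98 and 1.58, and at 0.64 and 0.85, 1.62 and 1.26, and 1.37 and 1.48 in those 3 comparisons in the same order. Both genes thus kept their side of 0 on all 8 arrays that compared the strains, once the second array of each pair was turned. HIS3 and ADE2 are among the genes in which W303 strains carry marker alleles. Which marker alleles the 2 strains carry was not stated. Both genes would also keep one side if the ratio ran the other way, so they bear on the dye swap and not on the direction. That the deposited ratio is Cy5 over Cy3 was assumed, with MAG1, the gene of the alkyladenine glycosylase that MMS induces, averaging 0.86 and 1.08 for MMS over untreated in G1 cells of esa1-L254P and wild type under this reading. The ribonucleotide reductase genes and HUG1 showed no such rise. In wild type RNR1 averaged -1.20, RNR2 -0.51, RNR3 -0.23, RNR4 0.0085 and HUG1 0.03. In esa1-L254P they averaged -0.31, -0.26, -0.0035, -0.30 and 0.06 in the same order. The assumed direction thus leans on MAG1.

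**Figure D1:**
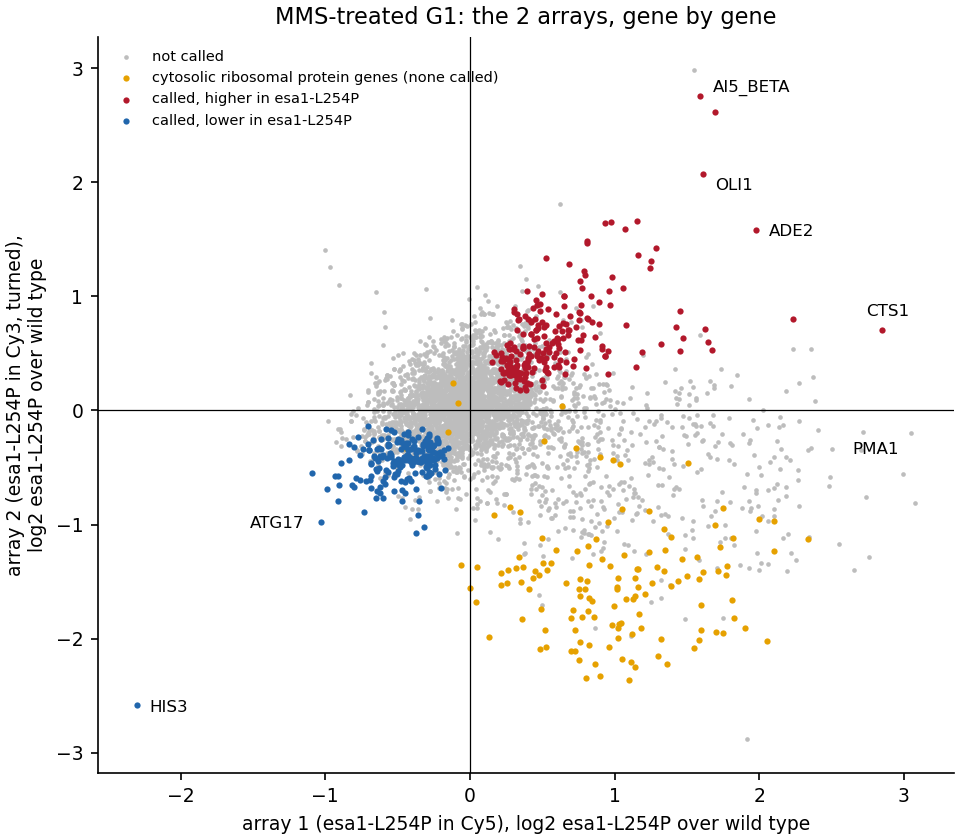
Each point is a gene, placed by its log2 ratio of esa1-L254P over wild type on array 1 (horizontal) and on array 2 (vertical) in MMS-treated G1. The 219 genes called higher (red) and the 203 called lower (blue) lie on the same side of 0 on both arrays, from which the calls were made. The cytosolic ribosomal protein genes (yellow) lie mostly above 0 on array 1 and below 0 on array 2.

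In MMS-treated G1 cells, 422 of 4073 genes (10.4%) differed between the strains, 219 higher in esa1-L254P (5.38%) and 203 lower (4.98%). Every one of the 422 lay on the same side of 0 on both arrays, as did 2206 of all 4073 genes. The calls were made from these same arrays, which favours such genes, so this is no separate replication. Differences were mostly small: 26 of the higher genes and 2 of the lower ones reached 2-fold. With the dye orientation as a block 1193 genes (29.3%) were called, 621 higher (15.2%) and 572 lower (14%), 771 of them only in that fit. These shares of all genes are the background to the counts given below for each gene list. Fits without array 1 or without array 2 hold 1 array of this comparison and have a larger standard error (median 0.20 without the block). Their counts, given further on, therefore cannot show how far a call rested on either array. The median standard error was 0.15, or 0.093 with the block. The standard deviation of the mean log2 ratio over genes was 0.34 here, against 0.38 in untreated G1 cells and 0.18 in S-phase cells with MMS.

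Among the called genes, the largest mean ratios were those of the mitochondrial reading frames AI5_BETA and AI5_ALPHA, followed in order by OLI1, ADE2, CTS1, GLK1, HXT7 and HXT6. The largest mean of all genes, 2.265, was that of AI4, another such frame, which was called only with the block. Those whose arrays lay close together are given first. OLI1, the mitochondrial gene of ATP synthase subunit c, lay at 1.61 and 2.08 (1.84 ± 0.13, adjusted p = 0.0004). ADE2, of purine synthesis, averaged 1.78 ± 0.15 (adjusted p = 0.0004). HXT6 and HXT7, high-affinity glucose transporters, lay at 1.29 and 1.43 and at 1.16 and 1.66, and averaged 1.36 ± 0.11 and 1.41 ± 0.24. The 2 HXT genes are nearly identical in sequence and their spots cannot be taken as separate measurements. CAR2, the ornithine transaminase of arginine breakdown, averaged 1.28 ± 0.14 (adjusted p = 0.000965). PUT4, the proline permease, lay at 1.25 on both arrays (adjusted p = 0.000676). OPT2, of the oligopeptide transporter family, averaged 1.26 ± 0.16 (adjusted p = 0.00206). The arrays agreed closely for CAR2, PUT4, HXT6 and OPT2.

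For other genes at the top of the list the arrays lay far apart. CTS1, the chitinase that separates daughter from mother cells, lay at 2.85 and 0.70 (1.78 ± 0.44, adjusted p = 0.0336). GLK1, glucokinase, lay at 2.23 and 0.80 (1.52 ± 0.38, adjusted p = 0.0347). GLY1, threonine aldolase, lay at 1.63 and 0.71 (1.17 ± 0.31, adjusted p = 0.0412). In these 3 genes array 1 was the higher one. DHH1, an RNA helicase that promotes decapping of messenger RNA, lay at 1.07 and 1.59 (1.33 ± 0.27, adjusted p = 0.0151), with array 2 the higher one.

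The lower genes were led by HIS3, of histidine synthesis, at 5.44-fold below wild type (-2.44 ± 0.22, adjusted p = 0.0004). ATG17, the scaffold of the kinase complex that starts autophagy, lay at -1.03 and -0.98 (-1.0 ± 0.14, adjusted p = 0.00317). No other gene called lower reached 2-fold. The duplicate spots of ATG17 and HIS3 lay 0.61 and 0.52 apart on array 2. DIA3, of the acid phosphatase family, came next among the called genes and averaged -0.85 ± 0.15 (adjusted p = 0.00734). RPC17, a subunit of RNA polymerase III, lay at -0.99 and -0.69 (-0.84 ± 0.10, adjusted p = 0.00129). LOC1, of large-subunit assembly, lay at -1.09 and -0.55 (-0.82 ± 0.18, adjusted p = 0.0213). HIT1, of snoRNP assembly, lay at -0.73 and -0.89 (-0.81 ± 0.08, adjusted p = 0.000824). FAP7, of small-subunit maturation, lay at -0.91 and -0.66 (-0.78 ± 0.09, adjusted p = 0.00129), and CGR1, of rRNA processing, averaged -0.74 ± 0.12 (adjusted p = 0.00528).

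The other genes among the 15 largest lower ones were of varied function. MED11, a Mediator subunit, averaged -0.75 ± 0.14, and THI2, an activator of thiamine genes, averaged -0.74 ± 0.14. ZRT1, the high-affinity zinc transporter, averaged -0.74 ± 0.15. SMA1 and SPO22, genes of spore membrane assembly and of meiosis, averaged -0.72 ± 0.18 and -0.69 ± 0.09. HMRA1, the silent copy of the a1 gene whose sequence is shared with the copy at the mating-type locus, averaged -0.71 ± 0.12, and DCG1, of the allantoin gene cluster, averaged -0.69 ± 0.09. All of these were called, and the array values of SMA1 lay farthest apart (-0.37 and -1.07). The duplicate spots of SMA1 lay 1.29 apart on array 2, and those of HMRA1 lay 0.86 apart on array 1.

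Some genes of large mean passed only with the block, and their arrays lay far apart. Among the higher ones AAP1, an aminopeptidase, lay at 0.62 and 1.81 (adjusted p = 0.112, 0.000322 with the block), and ILV6, of branched-chain amino acid synthesis, lay at 2.36 and 0.53 (adjusted p = 0.0511, 0.00951 with the block). ACO1, aconitase, lay at 2.23 and 0.54 (adjusted p = 0.104, 0.015 with the block). MET6, methionine synthase, lay at 2.37 and 0.29 (adjusted p = 0.173, 0.0119 with the block). The 10 such genes of lowest mean were all genes of cytosolic ribosomal proteins.

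**Figure D2:**
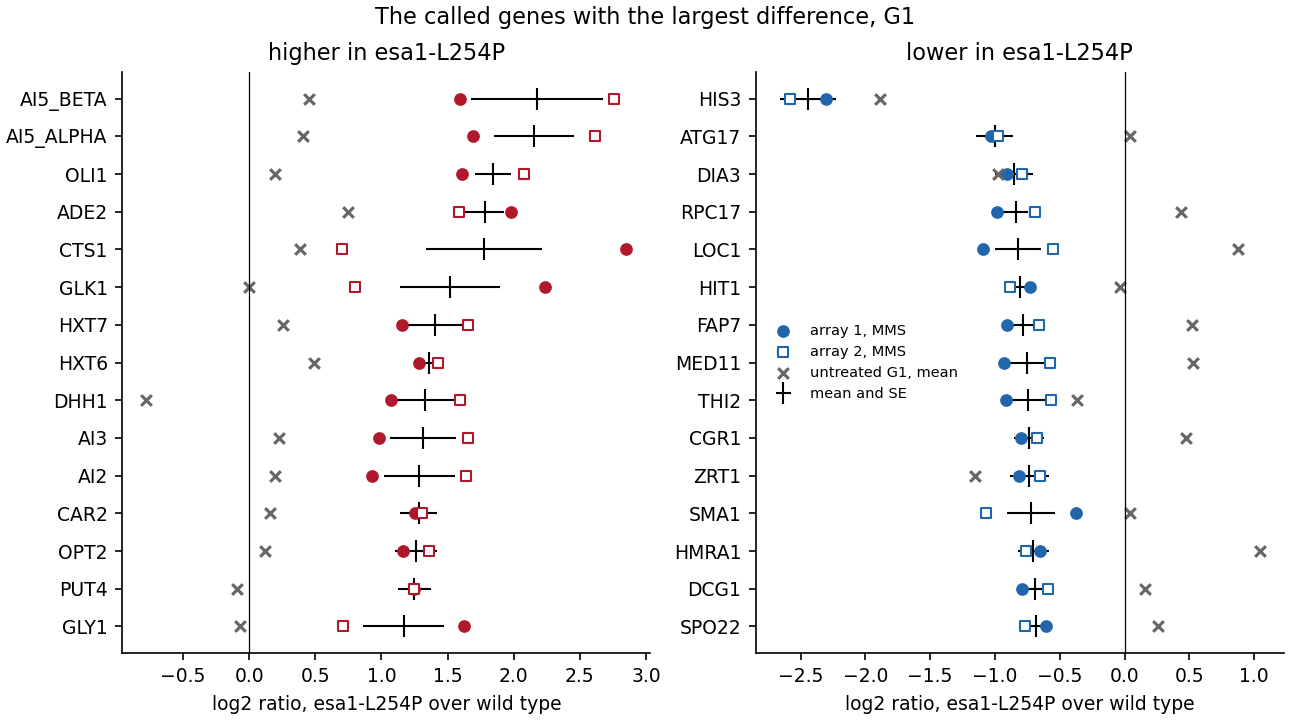
The 15 called genes with the largest log2 ratio of esa1-L254P over wild type in each direction, with array 1 (filled circles), array 2 (open squares), their mean with the standard error of the fit (bars) and the mean of the untreated G1 comparison (crosses). The untreated value lies above 0 for 10 of the 15 lower genes.

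ESA1 itself lay at 0.28 and 0.22 in the mutant over wild type (0.25 ± 0.07), which missed the threshold (adjusted p = 0.053) and passed it with the block (adjusted p = 0.0116). The allele is a point mutation, so the transcript does not check the strain labels. In untreated G1 cells ESA1 averaged 0.68, and the difference between MMS and no treatment passed (-0.43, adjusted p = 0.012). Near ESA1 on its chromosome, DGA1, the gene next to it on one side, averaged 0.01 (adjusted p = 0.958), and SSP2, one gene further on the other side, averaged -0.10 (adjusted p = 0.509).

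NuA4 subunits did not move together. Of 12 subunit genes measured, 2 were higher, 2 were lower and 8 did not pass, and the median was -0.0011, against 0.02 over all genes. EPL1, the enhancer-of-polycomb homologue that anchors the catalytic module, lay at 1.08 and 0.75 (0.91 ± 0.20, adjusted p = 0.0234). EAF1, the scaffold of the complex, lay at 0.68 and 0.66 (0.67 ± 0.08, adjusted p = 0.00192). YNG2, the partner of Esa1 and Epl1 in the catalytic module, lay at -0.29 and -0.34 (-0.31 ± 0.07, adjusted p = 0.0238), and EAF6, of the same module, lay at -0.56 and -0.31 (-0.44 ± 0.10, adjusted p = 0.0249). With the block 5 were higher, ESA1, TRA1 (0.37) and ACT1 (0.83) among them, and 4 were lower, with YAF9 (-0.34) and EAF5 (-0.31) added. ACT1, which encodes actin, had its arrays at 2.27 and -0.61. Without either array 1 gene was higher and none was lower. EAF3 (0.03), SWC4 (-0.06) and ARP4 (-0.03) passed in neither fit. The duplicate spots of EAF6 lay 0.56 apart on array 2.

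In the other acetylation and deacetylation genes, 1 of 29 was higher and 3 were lower, against 5.38% and 4.98% of all genes. SAS2, the acetyltransferase of H4 lysine residues near silent chromatin, averaged -0.41 ± 0.11, HOS1, a deacetylase, averaged -0.37 ± 0.09, and SAP30, of the Rpd3 deacetylase complex, averaged -0.37 ± 0.10. HOS3, another deacetylase, averaged 0.30 ± 0.08. With the block 4 were higher and 6 lower. Among 20 genes of the SWR1 and INO80 remodellers only IES4 passed (-0.58 ± 0.07, adjusted p = 0.00234), against 1 higher and 2 lower with the block. Of the histone genes, 11 in number, CSE4 of the centromere was lower (-0.51 ± 0.10, adjusted p = 0.0142) and the others did not pass.

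Of 68 genes in the lists of DNA repair and damage tolerance that follow, 1 was higher and 5 were lower, a share near the 10.4% called over all genes. With the block 5 were higher and 15 lower, again near the 29.3% of all genes. Of 6 genes of translesion polymerases, REV7, the accessory subunit of polymerase zeta, was lower, at -0.64 and -0.44 (-0.54 ± 0.09, adjusted p = 0.00604). REV3, the catalytic subunit of the same polymerase, lay at -0.41 and 0.06 (adjusted p = 0.583, 0.0471 with the block). REV1 averaged -0.14 (adjusted p = 0.739) and RAD30, polymerase eta, averaged -0.01 (adjusted p = 0.98). REV7 was not called without array 1 (adjusted p = 0.0963), or once the trend with gene length described further on was removed (adjusted p = 0.0526).

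Of the PCNA genes and their modifiers, ELG1, which unloads PCNA from DNA, was lower (-0.33 ± 0.06, adjusted p = 0.0123) and RFC1, of the clamp loader, was higher (0.29 ± 0.07, adjusted p = 0.0345), with 9 others not passing. The block gave 1 higher and 2 lower. None of 11 genes of alkylation and base excision repair passed without the block, and 2 did with it, MGT1 (-0.36) and TPP1 (-0.27). MAG1 lay at -0.53 and -0.31 (-0.42 ± 0.16, adjusted p = 0.149). Only 1 of these 11 genes had a mean above 0. Of 18 nucleotide excision repair genes, TFB4, of the TFIIH complex, was lower (-0.24 ± 0.06, adjusted p = 0.0418), and with the block 1 was higher and 5 were lower. Of 22 recombination genes, PSY3 and RAD50 were lower (-0.37 ± 0.07 and -0.29 ± 0.07). With the block 3 recombination genes were higher and 4 were lower, RAD52, which loads the recombinase, among the higher ones (0.29, adjusted p = 0.0896, 0.0136 with the block).

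Of the 17 reductase and damage-inducible genes 1 was higher and none was lower, 4 and 0 with the block. RNR1 averaged 0.15 (adjusted p = 0.847), RNR2 0.58 (adjusted p = 0.503), RNR3 -0.08 (adjusted p = 0.633) and RNR4 0.41 (adjusted p = 0.302), all subunits of ribonucleotide reductase. HUG1, an inhibitor of that enzyme, averaged -0.04 (adjusted p = 0.909). PHR1, photolyase, was the higher one (0.33 ± 0.08, adjusted p = 0.0388). The largest mean of the list was that of WTM1, which anchors the small reductase subunits in the nucleus, at 1.74 and 0.36 (1.05 ± 0.31, adjusted p = 0.0614, 0.0207 with the block). Among 17 checkpoint genes MEC1, the sensor kinase, was higher (0.29 ± 0.07, adjusted p = 0.0314) and MEC3, of the checkpoint clamp, was lower (-0.28 ± 0.07, adjusted p = 0.0418), and with the block 2 were higher and 5 were lower. Of all genes 5.38% were higher and 4.98% lower, 15.2% and 14% with the block. PHR1 and MEC1 were not called once the trend with gene length described further on was removed.

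Among 35 replication genes 1 was higher and 4 were lower, against 5.38% and 4.98% of all genes. PRI2, of DNA primase, averaged -0.47 ± 0.10, TOP2, topoisomerase II, -0.42 ± 0.08, and DPB3, of polymerase epsilon, -0.42 ± 0.10. MCM3, of the replicative helicase, averaged 0.39 ± 0.08 (adjusted p = 0.0151). With the block 2 replication genes were higher and 9 lower, against 15.2% and 14% of all genes. Of the G1/S cyclins and their targets, 28 in number, PCL2 and HO were higher (0.50 ± 0.13 and 0.28 ± 0.07) and SMC3, of cohesin, was lower (-0.46 ± 0.06, adjusted p = 0.00316), against 6 and 4 with the block. In the mitotic CLB2 cluster of 20 genes IQG1 alone passed, at -0.36 ± 0.10 (adjusted p = 0.0463), with 2 lower under the block.

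Without the block, general stress genes held the most calls in one direction of the 48 lists, by count. The M/G1 list is smaller and held 12 of 23, and with the block ribosome biogenesis held the most, 28 lower. Of 36 genes driven by the stress activators Msn2 and Msn4, 18 were higher and none was lower, against 5.38% and 4.98% of all genes. Their median was 0.58. The medians of the arrays were 0.61 and 0.49. The count was 7 without array 1 and 13 without array 2, and 25 higher and 1 lower with the block. In untreated G1 cells the median of the same genes was 0.02, and 16 of the 36 were higher with MMS than without by the test of the difference, with none lower (22 and 3 with the block). Over all genes 11.6% were higher and 15% lower by that test.

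The genes of glycogen and trehalose among them were, apart from GPH1, picked after their values were seen. DDR2, a small stress protein, lay at 1.06 and 1.07 (1.07 ± 0.09, adjusted p = 0.0004). GPH1, glycogen phosphorylase, lay at 0.76 and 1.13 (0.95 ± 0.09, adjusted p = 0.000502), and GDB1, the debranching enzyme, lay at 0.65 and 1.00 (0.83 ± 0.12, adjusted p = 0.00446). GSY2, glycogen synthase, averaged 0.64 ± 0.09 and GLC3, the branching enzyme, averaged 0.69 ± 0.14. The named genes of glycogen synthesis and of its breakdown lay on the same side. For trehalose, TSL1 and NTH1, a synthase subunit and a trehalase, averaged 0.78 ± 0.19 and 0.58 ± 0.09, and both were called. ALD3, an aldehyde dehydrogenase, averaged 0.68 ± 0.07 (adjusted p = 0.000824), and YGP1, a secreted glycoprotein, averaged 0.95 ± 0.22.

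Other stress genes did not pass. CTT1, catalase, averaged 0.12 (adjusted p = 0.503), and HSP12, a membrane chaperone, lay at 0.51 and -0.14 (adjusted p = 0.566). GPD1, of glycerol synthesis, lay at 1.92 and -2.88, the widest gap in the list. MSN2 and MSN4 themselves averaged 0.23 (adjusted p = 0.129) and 0.36 (adjusted p = 0.0664), and both passed with the block (adjusted p = 0.00932 and 0.0232).

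Of 24 hexose transporter genes and their regulators, HXT6, HXT7, HXT4 (0.95 ± 0.13, adjusted p = 0.00318) and MTH1 (0.50 ± 0.12, adjusted p = 0.0301) were higher and none was lower, against 7 and 3 with the block. Mth1 is a repressor of HXT genes. HXT2 averaged 0.10 (adjusted p = 0.616). In the citrate cycle, 4 of 22 genes were higher and 1 was lower, FBP1 of gluconeogenesis (-0.25 ± 0.06, adjusted p = 0.0329). The higher ones included IDP1, mitochondrial isocitrate dehydrogenase, at 1.64 and 0.60 (1.12 ± 0.25, adjusted p = 0.0229), and MDH1 and MDH2, malate dehydrogenases, at 0.55 ± 0.14 and 0.34 ± 0.09. With the block 7 were higher and 2 lower. Without array 1 no citrate cycle gene and 1 hexose transporter were called, and without array 2 there were 1 and 2. Of 43 nuclear genes of respiration, SDH1 and SDH2, subunits of succinate dehydrogenase, were higher (0.71 ± 0.13 and 0.59 ± 0.13), and no gene was lower, against 7 and 0 with the block.

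Transcripts of the mitochondrial genome gave the highest list median, 0.93 over 17 genes, with 8 higher and none lower. The medians of the arrays were 0.52 and 1.17, so array 2 was the higher one here, and the median dye term of the other arrays was -0.13. The called genes were COX1, cytochrome oxidase subunit I (0.98 and 1.17, mean 1.08 ± 0.20, adjusted p = 0.0123), the reading frames AI1, AI2, AI3, AI5_ALPHA and AI5_BETA inside its introns, OLI1 and VAR1, the mitochondrial ribosomal protein. AI5_ALPHA and AI5_BETA averaged 2.15 ± 0.30 and 2.17 ± 0.50, and VAR1 averaged 1.14 ± 0.24. AI4 lay at 1.55 and 2.98 and passed only with the block (adjusted p = 0.06 and 2.14e-06).

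The other mitochondrial genes lay near 0. COB, cytochrome b, averaged 0.10 (adjusted p = 0.363), COX2 -0.03 (adjusted p = 0.887), COX3 0.04 (adjusted p = 0.869) and ATP6 0.03 (adjusted p = 0.889). The frames inside the COB introns, BI2, BI3 and BI4, lay between -0.09 and 0.03. The difference from 0 was thus held by COX1 with its introns, OLI1 and VAR1. The intron frames overlap the COX1 transcript unit and are not independent of it. The RNA had been selected on oligo-dT cellulose, and mitochondrial messages of this yeast are known to lack poly(A) tails. The count was 3 without array 1 and 1 without array 2, and 9 under either omission with the block. In untreated G1 cells the median of the 17 was 0.13.

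Genes for uptake and breakdown of nitrogen sources are set beside all genes, of which 5.38% were higher and 4.98% lower, 15.2% and 14% with the block. Of 26 amino acid, peptide and ammonium permeases, 5 were higher and 1 was lower, 11 and 1 with the block, with a median of 0.40. Besides PUT4, MEP2, the high-affinity ammonium permease, lay at 0.79 and 1.19 (0.99 ± 0.10, adjusted p = 0.000706). AGP2 lay at 0.73 on both arrays (adjusted p = 0.0111). GAP1, the general amino acid permease, and AGP1, a broad-range permease, lay at 1.47 and 0.64 and at 1.45 and 0.52 (adjusted p = 0.0379 and 0.044), with array 1 well above array 2. DAL4, the allantoin permease, was lower (-0.58 ± 0.09, adjusted p = 0.00441). The count of higher permeases was 2 without array 1 and 3 without array 2.

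In arginine metabolism 4 of 17 genes were higher, 8 with the block. The 4 were CAR2, PUT4, ARG80, a regulator of arginine genes (0.58 ± 0.13, adjusted p = 0.0207), and PUT1, proline oxidase (0.34 ± 0.08, adjusted p = 0.0318). PUT4 is a member of the permease list as well, and PUT4 and PUT1 act on proline. The count was 2 without either array. In sulfur assimilation 8 of 34 genes were higher and 2 were lower, against 5.38% and 4.98% of all genes. With the block 15 were higher and 2 lower, against 15.2% and 14%. MET13, methylenetetrahydrofolate reductase, lay at 0.82 and 0.80 (0.81 ± 0.07, adjusted p = 0.000414). MET10, of sulfite reductase, averaged 0.75 ± 0.12, and SUL1, a sulfate permease, averaged 0.71 ± 0.12. The lower pair was MET31 (-0.48 ± 0.10) and MET32 (-0.32 ± 0.07), which encode related DNA-binding regulators of the pathway. MET31 and MET32 were picked after their values were seen. With the trend with gene length described further on removed, 5 genes of the list were higher and none was lower. The count of higher genes was 1 without array 1 and 3 without array 2.

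Other pathways of synthesis had medians far above 0 on array 1 only. In the remaining amino acid pathways the median was 1.04 on array 1 and -0.07 on array 2 over 49 genes, with a median dye term of 0.15. SER3 (0.67 ± 0.15) and GLT1, glutamate synthase (0.50 ± 0.11), were higher and HIS3 was lower, while 17 were higher and 1 lower with the block. In glycolysis and fermentation the medians were 1.58 and -0.08 over 28 genes, with a dye term of 0.26, and ALD4 was the 1 gene called (0.72 ± 0.15, adjusted p = 0.0197), against 12 higher with the block. TDH3, glyceraldehyde-3-phosphate dehydrogenase, lay at 2.99 and -0.56, with adjusted p = 0.59 and 0.00691 with the block. PMA1, the plasma membrane proton pump, lay at 3.05 and -0.20 (adjusted p = 0.464, 0.0111 with the block). For the 37 genes of the proteasome and polyubiquitin the medians were 0.92 and -0.69, and none passed in either fit. The dye term is 0.5 times a difference between arrays, and its median was 0.19 for the proteasome genes. In each of these lists it was smaller than 0.5 times the gap between the array medians. The part of array 1 in the values of these lists was not tested further.

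Genes expressed as cells pass from mitosis into G1 were higher as a group. Of 23 M/G1 genes, 12 were higher and none was lower (16 and 1 with the block), with a median of 0.54 and array medians of 0.47 and 0.51. CTS1 had the largest mean. Of the DSE genes, which are expressed in daughter cells, DSE2 lay at 0.90 and 0.95 (0.92 ± 0.13, adjusted p = 0.00317), DSE1 at 0.77 and 0.92 (0.85 ± 0.11, adjusted p = 0.00283) and DSE4 at 0.58 and 0.61 (0.60 ± 0.08, adjusted p = 0.00234). SUN4, of septum formation, lay at 0.78 and 1.07 (0.93 ± 0.13, adjusted p = 0.00285). EGT2, a wall endoglucanase, lay at 0.66 and 0.76 (0.71 ± 0.07, adjusted p = 0.000502), and SCW11 averaged 0.59 ± 0.10. SIC1, the inhibitor of S-phase kinase, averaged 0.12 (adjusted p = 0.619), and ASH1, the repressor that is specific to daughter cells, lay at -0.21 and 0.22 (adjusted p = 0.993). The count was 4 without array 1 and 8 without array 2. In RNA of a culture, a larger share of cells at a stage and more transcript per cell cannot be told apart.

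Cell wall genes overlapped with these. Of 38, 7 were higher and none was lower, 13 and 1 with the block. KRE6, of glucan synthesis, lay at 1.45 and 0.87 (1.16 ± 0.30, adjusted p = 0.0376), and YPS1, a surface protease, lay at 0.64 and 0.69 (0.67 ± 0.16, adjusted p = 0.0336). FLO11 averaged 0.45 ± 0.07 (adjusted p = 0.00649). The called wall genes were 0 without array 1 and 1 without array 2.

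The response to alpha factor, which all cells had received, gave array values that opposed each other. Over 40 pheromone genes the medians were 0.79 and -0.27, with a dye term of 0.08, and 2 passed, both higher, GIC2 (0.85 ± 0.24) and PCL2. With the block 6 were higher and 2 lower. FUS1, of cell fusion, lay at 1.43 and -0.67 (adjusted p = 0.661), AGA1, an agglutinin anchor, at 3.08 and -0.81 (adjusted p = 0.49), and STE2, the receptor for alpha factor, at 1.98 and -0.70 (adjusted p = 0.581). A ratio between strains gives no level, so the labelled cell state cannot be read from these markers.

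Markers of other cell states held few higher genes. Of 25 alpha-specific, diploid or meiotic genes 2 were higher and 6 were lower, against 5.38% and 4.98% of all genes. With the block 3 were higher and 11 lower, against 15.2% and 14%. Once the trend with gene length described further on was removed, none was higher and 6 were lower. MF(ALPHA)2 and SAG1, alpha-specific genes, averaged 0.56 ± 0.12 (adjusted p = 0.02) and 0.25 ± 0.07 (adjusted p = 0.0434), whereas STE3 averaged -0.34 (adjusted p = 0.11, 0.0431 with the block) and MF(ALPHA)1 0.18 (adjusted p = 0.654). SPO11, which breaks DNA in meiosis, averaged -0.63 ± 0.13, and ZIP1, of the synaptonemal complex, averaged -0.61 ± 0.08, both called. Without array 1 no gene was higher and 1 was lower, and without array 2 none was higher and 2 were lower. IME1 and IME2, the meiotic inducers, averaged 0.08 and -0.14 and did not pass.

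Genes of ribosome production lay mostly below 0. Of 93 ribosome biogenesis genes 6 were lower and none was higher, with a median of -0.20 and array medians of -0.22 and -0.17. SSF2 lay at -0.68 and -0.46 (-0.57 ± 0.09, adjusted p = 0.00566) and SSF1, its paralogue, at -0.38 and -0.42 (-0.40 ± 0.07, adjusted p = 0.00615). Both act in large-subunit maturation. RRP1 averaged -0.68 ± 0.17 and ENP2 averaged -0.41 ± 0.11. With the block 28 were lower and 1 was higher. The share lower, 6 of 93, was close to the 4.98% over all genes, and the difference from untreated cells was the wider one: 37 of the 93 were lower with MMS than without and 2 were higher (52 and 6 with the block), where 15% and 11.6% of all genes were. Without array 1 no member was called in the main comparison, and without array 2 there were 2.

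Of 25 subunits and factors of RNA polymerase I and III, RPC17, RRN9 (-0.49 ± 0.07, adjusted p = 0.00408) and RRN11 (-0.50 ± 0.08, adjusted p = 0.00647) were lower, and none was higher, against 4 and 2 with the block. RRN9 and RRN11 encode initiation factors of polymerase I. Of 60 mitochondrial ribosomal protein genes 3 were lower and 1 was higher, 13 and 2 with the block. Over all genes 4.98% were lower and 5.38% higher, 14% and 15.2% with the block. MRP21, of the small subunit, lay at -0.69 and -0.61 (-0.65 ± 0.09, adjusted p = 0.00317). By the difference from untreated G1 cells, 26 of the 60 were lower and 2 were higher (34 and 5 with the block), against 15% and 11.6% of all genes, and the medians were -0.15 with MMS and 0.40 without.

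The 136 genes of cytosolic ribosomal proteins gave opposed values on the 2 arrays. Their median was 0.98 on array 1 and -1.50 on array 2, and the dye term of the other arrays had a median of 0.99. The mean of both arrays had a median of -0.30, with 32 of 136 above 0, and none was called. With the dye orientation as a block 20 were lower and none was higher. The share lower, 20 of 136, was close to the 14% of all genes called lower with the block. RPL39, for example, lay at 0.13 and -1.99 (-0.93 ± 0.83, adjusted p = 0.573, 0.0045 with the block), and RPL31A lay at 0.49 and -2.09 (adjusted p = 0.694, 0.0155 with the block).

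**Figure D3:**
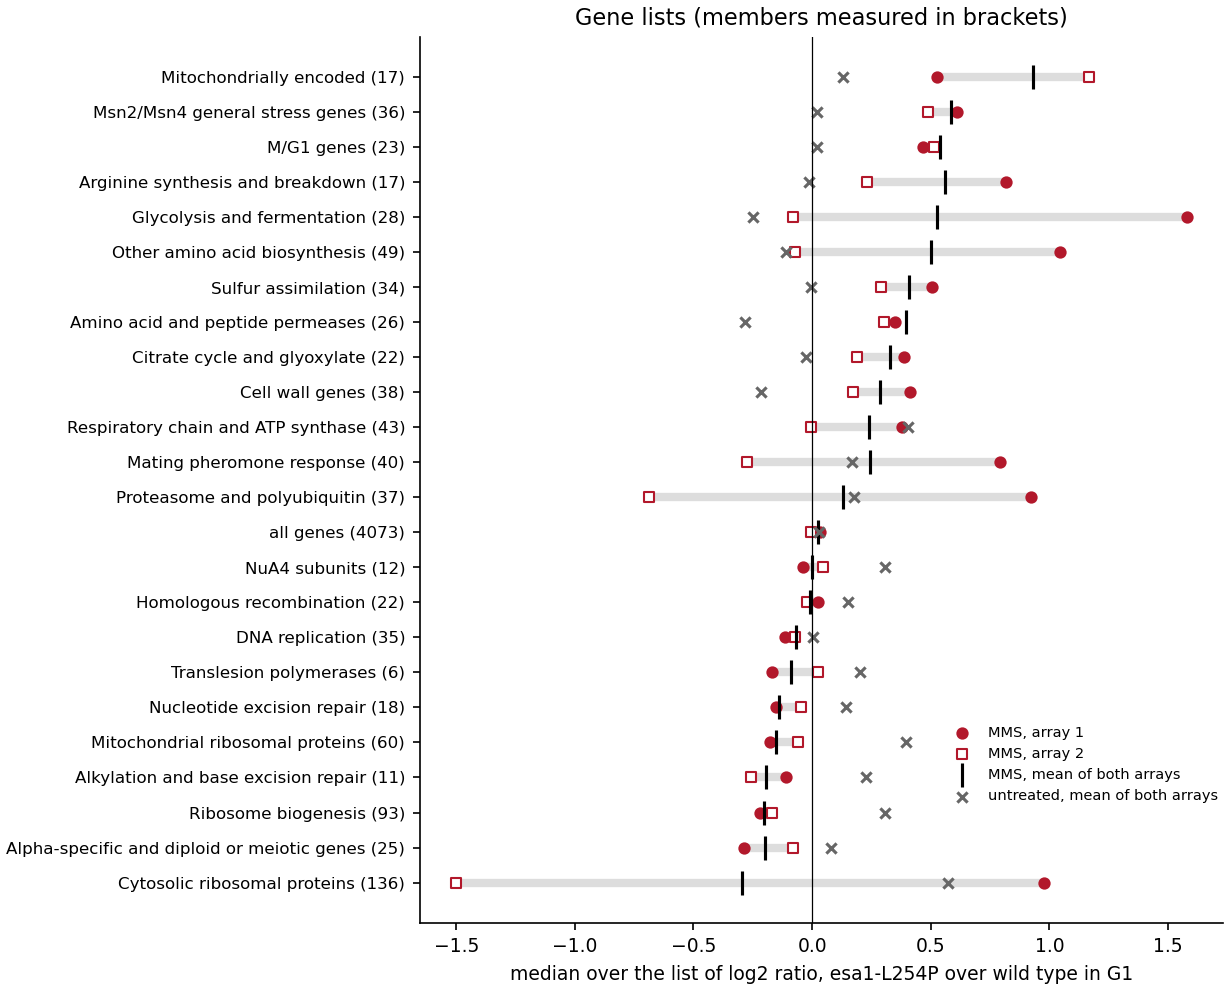
Median log2 ratio of esa1-L254P over wild type in G1 for 23 gene lists and all genes, with MMS on array 1 (filled circles), on array 2 (open squares) and as the mean (black bars), and untreated as the mean (crosses). Stress and M/G1 genes lie near 0.5 on both MMS arrays and near 0 untreated, whereas glycolysis, proteasome and ribosomal protein genes have array medians on opposite sides of 0.

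Lists with few or no calls are given for completeness. None of 9 lysine, 25 phosphate-regulated, 40 translation factor and 11 COS genes was called, whereas with the block 1, 2, 8 and 2 of them were higher and none was lower. Of 28 chaperones 25 lay above 0, with a median of 0.24 and array medians of 0.67 and -0.12. BTN2 was the 1 chaperone called, as lower (-0.49 ± 0.10, adjusted p = 0.0126), and with the block 5 were higher and 1 lower. SSA1, a cytosolic Hsp70, lay at 2.28 and 0.24 (adjusted p = 0.184, 0.0453 with the block). Of 39 redox genes linked to Yap1, OYE3, an NADPH oxidoreductase, was higher, at 0.69 and 0.83 (0.76 ± 0.07, adjusted p = 0.000605), as was ZWF1, of the pentose phosphate pathway (1.10 ± 0.30, adjusted p = 0.0434), with 7 higher and 1 lower under the block. HMG2, of sterol synthesis, and TIR4, a wall mannoprotein, were higher (0.56 ± 0.13 and 0.32 ± 0.07) and HES1, an oxysterol-binding protein, was lower (-0.40 ± 0.10) among 38 genes of the ergosterol list (4 and 1 with the block). Among 26 genes of purine and pyrimidine synthesis ADE6 and BAS1, the activator of the purine pathway, were higher (0.55 ± 0.12 and 0.23 ± 0.06) and none was lower (6 and 0 with the block). Of 27 lipid genes FAA1 and LRO1 were higher (0.53 ± 0.09 and 0.23 ± 0.06) and FAA2 was lower (-0.47 ± 0.07), against 4 and 2 with the block. FIT3, a wall mannoprotein of iron uptake, was higher (0.53 ± 0.10) among 31 iron genes, where the block gave 5 higher and 1 lower.

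Of 24 autophagy genes PRB1, a vacuolar protease, was higher (0.81 ± 0.13, adjusted p = 0.00566), whereas ATG17 and ATG10 were lower (-1.0 and -0.36). With the block 7 autophagy genes were higher and 5 lower. Of 29 genes of folding in the endoplasmic reticulum HAC1, the activator of the unfolded protein response, was higher (0.58 ± 0.14, adjusted p = 0.0275) and DER1 and MPD1 were lower (-0.54 ± 0.14 and -0.36 ± 0.07), against 1 and 5 with the block. SNZ2 and SNZ3, paralogues of vitamin B6 synthesis that are nearly identical, averaged -0.61 ± 0.10 and -0.63 ± 0.09, and with THI2 they were the 3 lower genes of a vitamin list of 27, in which BNA3 was higher (0.71 ± 0.15). The block gave 2 higher and 4 lower. Among the 16 genes of the vacuolar proton pump VMA2 was higher (0.74 ± 0.17) and VMA22, its assembly factor, was lower (-0.53 ± 0.13). Of the 6 marker genes of W303, LEU2 (0.23, adjusted p = 0.653), TRP1 (-0.01, adjusted p = 0.967), URA3 (-0.13, adjusted p = 0.86) and CAN1 (0.58, adjusted p = 0.251) did not pass beside HIS3 and ADE2.

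The strain difference with MMS was then set against that in untreated G1 cells, which asked whether MMS changes how the strains differ. It differed in 1084 of 4073 genes (26.6%), 472 with a higher value under MMS (11.6%) and 612 with a lower one (15%). With the block the count was 2039 (50.1%). It was 603 without array 1 and 658 without array 2 of the untreated comparison, and 729 and 802 without array 1 and array 2 of the MMS comparison. Over all genes the means in MMS and untreated cells ran opposite to each other (Spearman -0.48 across 4073 genes on one platform, as a description). Of the 219 genes higher with MMS, 138 lay below 0 untreated, and of the 203 genes lower with MMS, 174 lay above 0 untreated. Over all genes the shares were 1389 of 2173 and 1391 of 1900. The share among the higher genes was thus close to that of all genes above 0.

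DHH1 averaged 1.33 with MMS and -0.78 untreated, a difference of 2.11 ± 0.38 (adjusted p = 0.00338). DED1, an RNA helicase of translation initiation, averaged 0.82 with MMS and -1.08 untreated (adjusted p = 0.00187). SPE1, ornithine decarboxylase, averaged 1.15 and -0.64 (adjusted p = 0.0137), and SRO9, an RNA-binding protein, averaged 0.81 and -0.80 (adjusted p = 0.000148). In each of these 4 genes the strain difference lay on opposite sides of 0 in the 2 conditions, on all 4 arrays. OLI1 averaged 1.84 with MMS and 0.19 untreated, on the same side.

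In the other direction HMRA1 averaged -0.71 with MMS and 1.04 untreated (difference -1.75 ± 0.17, adjusted p = 0.000178). FYV6 averaged -0.67 and 0.96 (adjusted p = 0.000104), UTP11, of small-subunit processing, -0.67 and 0.95 (adjusted p = 0.000148), and LOC1 -0.82 and 0.87 (adjusted p = 0.00145). VMA10, of the vacuolar proton pump, and SLF1, an RNA-binding protein, averaged -0.48 and 1.34 and -0.47 and 1.30, and neither was called with MMS alone (adjusted p = 0.352 and 0.308, 0.19 and 0.0227 with the block). NOP15, of ribosome biogenesis, and SRP21, of the signal recognition particle, averaged -0.68 and 1.05 and -0.61 and 1.05, also without a call with MMS alone (adjusted p = 0.0543 and 0.069, 0.00101 and 0.00793 with the block). Genes such as HIS3 (-2.44 with MMS, -1.89 untreated, adjusted p of the difference 0.214), DIA3 (-0.85 and -0.98, adjusted p = 0.703), ZRT1 (-0.74 and -1.15, adjusted p = 0.18) and SNZ3 (-0.63 and -0.58, adjusted p = 0.807) lay on one side in both conditions and gave no called difference.

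Among the fixed genes of repair, REV7 averaged -0.54 with MMS and 0.19 untreated (adjusted p of the difference 0.00242). MAG1 averaged -0.42 with MMS and 0.39 untreated (adjusted p = 0.0289). Its strain difference with MMS, formed from the other G1 comparisons as described further on, lay at 0.17, on the other side of 0. YNG2 averaged -0.31 and 0.76 (adjusted p = 0.00016) and EAF6 -0.44 and 0.54 (adjusted p = 0.00118). Of the 12 NuA4 genes 5 were lower with MMS than without and 1, EAF1, was higher (5 and 4 with the block), against 15% and 11.6% of all genes.

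**Figure D4:**
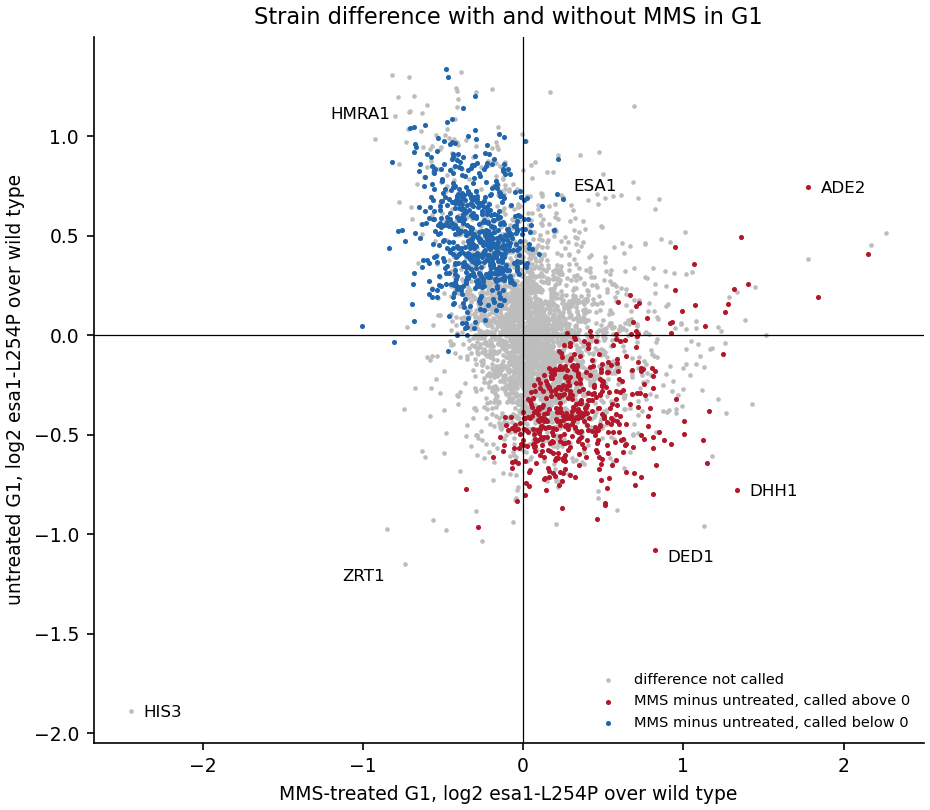
Each point is a gene, placed by its log2 ratio of esa1-L254P over wild type in MMS-treated G1 (horizontal) and in untreated G1 (vertical), each the mean of 2 arrays. The 472 genes whose difference was called above 0 (red) and the 612 called below 0 (blue) fill opposite corners, while HIS3 and ZRT1 lie below 0 on both axes.

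The strain difference with MMS in G1 was also set against that in S phase, with MMS in both. As deposited the S-phase arrays correlated at 0.61. The difference was called in 21 genes (0.516%), 14 with a higher value in G1 (0.344%) and 7 with a lower one (0.172%), and in 470 (11.5%) with the block, 228 higher (5.6%) and 242 lower (5.94%). No gene was called without either array of this comparison or of the S comparison, where 464 to 652 genes lay at an unadjusted p under 0.05. OLI1 averaged 1.84 in G1 and 0.58 in S (difference 1.27 ± 0.19, adjusted p = 0.0433), HXT6 averaged 1.36 and 0.22, SUN4 0.93 and -0.20, and DDR2 1.07 and 0.21. MEP2 averaged 0.99 in G1 and 0.20 in S. HXT2 averaged 0.10 in G1 and -0.83 in S, so that this difference lay in S phase. On the lower side FAP7 averaged -0.78 in G1 and 0.07 in S, COX17, a copper chaperone, -0.68 and 0.13, MRP21 -0.65 and 0.13, RPC17 -0.84 and -0.07, CWC24, a splicing factor, -0.59 and 0.03, and SSF1 -0.40 and 0.12.

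The same strain difference can be formed without the 2 arrays, from the other G1 comparisons: the MMS response of esa1-L254P plus the untreated strain difference minus the MMS response of wild type. This indirect value rests on 6 other arrays, but it may have used the same RNA extracts, so the values are set side by side. It was 1.90 for AI5_ALPHA, 1.53 for OLI1, 1.60 for ADE2, 1.44 for DHH1, 1.06 for PUT4, 1.15 for CTS1 and 0.84 for GLK1. It was -1.69 for HIS3, -0.55 for ATG17, -0.46 for RPC17, -0.61 for HIT1 and -0.51 for REV7. For EPL1 it was 0.13, against 0.91 on the 2 arrays, and for MAG1 it was 0.17, against -0.42. For the lists whose arrays opposed each other, the indirect medians were 0.15 for glycolysis, 0.07 for the proteasome genes and -0.61 for the cytosolic ribosomal proteins, against 0.52, 0.13 and -0.30 on the 2 arrays. For stress and M/G1 genes they were 0.41 and 0.46, against 0.58 and 0.54. Joined in one fit, the direct and indirect routes called 658 genes.

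Gene length moved with the strain difference. Over 4065 genes with a known span from start to stop codon, introns included, the Spearman correlation with the log2 ratio was 0.27, and in untreated G1 it was -0.26 (both across genes, as descriptions). Genes were divided by length into 5 bins of nearly equal size. The shortest bin, 78 to 753 bases, had a median of -0.11, with 15 genes called higher and 75 lower of 821. The longest bin, 2271 to 14733 bases, had a median of 0.09, with 64 higher and 15 lower of 812. In untreated G1 the medians were 0.24 and -0.04. On array 1 the medians of the shortest and longest bin were 0.01 and 0.05, and on array 2 they were -0.27 and 0.14. The gap between the bins was thus wider on array 2. With the trend removed, 307 genes were called in place of 422. The stress genes then had 15 higher, the M/G1 genes 8, the mitochondrial genes 8, ribosome biogenesis 7 lower, the NuA4 genes 1 higher and none lower, and the mitochondrial ribosomal proteins, with a median span of 708 bases, 1 higher and 1 lower. The permeases had 3 higher and 1 lower, and the arginine list had 2 higher. No histone, SWR1 and INO80, translesion, nucleotide excision repair or reductase and damage-inducible gene was called. CSE4, IES4, REV7, TFB4 and PHR1 thus lost their calls, as did RFC1, MEC1 and MCM3. What the length of a gene contributes was not tested beyond this.

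**Figure D5:**
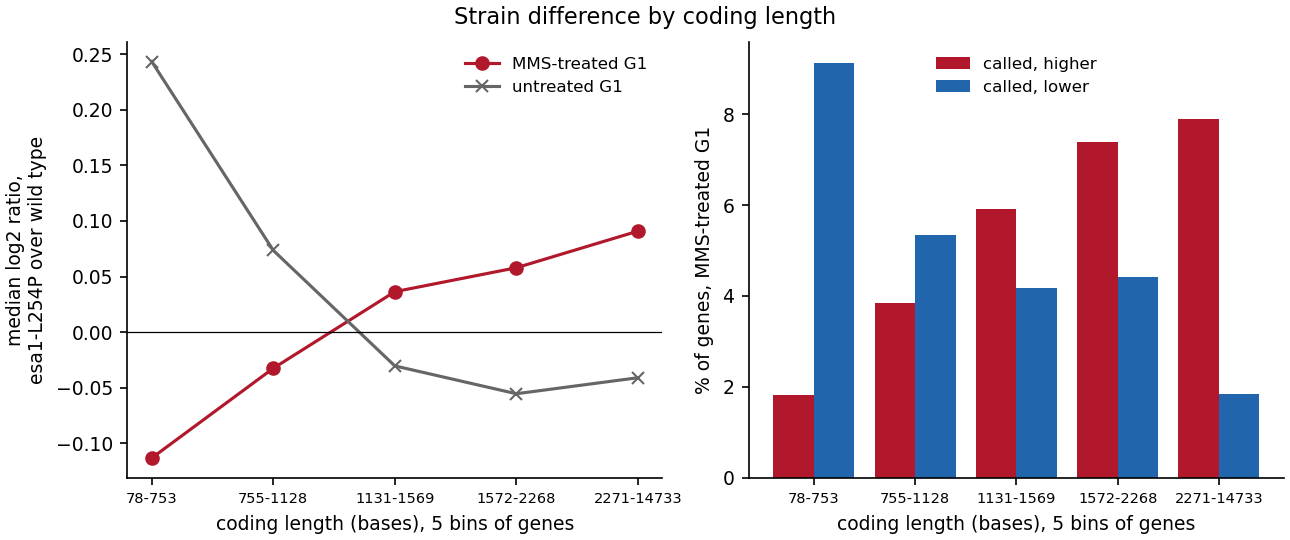
The 5 bins of genes by coding span in bases (introns included), with the median log2 ratio of esa1-L254P over wild type in MMS-treated and untreated G1 (left) and the percentage of genes called higher or lower with MMS (right). In MMS-treated cells the median runs between -0.11 in the shortest bin and 0.09 in the longest, and in untreated cells it runs the other way.

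No chromosome stood apart as a whole. The medians of the 16 nuclear chromosomes lay between -0.01 and 0.13, and that of the mitochondrial genome was 0.93.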

How the data were processed

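Each of the 16 samples is a two-colour spotted array of poly(A)-selected RNA copied from an oligo-dT primer, with Cy5 in channel 1. The authors deposited 1 log ratio per spot. Its log2 base was taken from limma's default, since the submitters' processing notes name R 3.1.1 and limma 3.0 and give no base, normalization or direction. The deposited log2 ratio was taken to have Cy5 on top, so values of replicate 2, with dyes swapped, had their sign turned. No intensities were used here, so signal over background is unknown, and the number of arrays limits the precision.

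Rows of the value table did not follow the spot numbers of the annotation: duplicate spots matched by number correlated between -0.03 and 0.03. Of 25600 systematic orderings of the 15744 spots, the one at which duplicates of 2035 genes agreed best was taken (score 1.13, next best 0.30). In 2035 genes kept out of the search, duplicates then correlated between 0.68 and 0.95 over the arrays. The mean over a gene's spots was used for 4073 genes, of which 323 had spots over 0.5 apart on either array. Of the 422 called genes 27 had such spots.

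The fit was limma 3.58.1 in R 4.3.3 (lmFit, eBayes) on the 16 arrays with a coefficient for each of the 8 comparisons and 8 residual degrees of freedom. Its code was run on simulated arrays with known changes, which checks the code and not the calls made here. The deviation between the replicates was shared between comparisons in all 28 pairs (correlations 0.62 to 0.89). Replicate number and dye orientation coincide in every comparison, so these correlations cannot tell a pairing of arrays from the dye. Calls with the replicate block are given beside those without it where they differ in the comparison of the strains. Gene lengths came from a RefSeq table, whatever build the authors used, and are spans from start to stop codon, with introns where present.

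Genes were named by rule: NuA4, translesion, reductase and marker genes, the 15 largest called changes in each direction, the 10 largest called with the block only, up to 4 per list, and the largest differences from untreated G1 (8 each way) and from S phase (6 each way). Cell state markers were fixed separately. Further list members, ALD3, GDB1, GLC3, GSY2, NTH1, TSL1, CTT1, HSP12, GPD1, MSN2, AGP2, DAL4, MET31, MET32, FBP1, DSE4, EGT2, SCW11, SIC1, ASH1, FLO11 and the other mitochondrial genes, were chosen after their values were seen. The members and lists were chosen with earlier results of these data known. Alternatives for genes' length, for leaving out an array with the block or from the other comparisons, and for the closed loop with the block were added after seeing the data.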

Additional observations from a re-analysis of the deposited data

Results flagged for a closer look

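The strain difference in G1 was larger or smaller with MMS than without in 1084 genes by the test of the difference itself. Among the named genes the difference, MMS minus untreated, was -1.82 for VMA10, -1.77 for SLF1, -1.75 for HMRA1, -1.73 for NOP15, -1.69 for LOC1, -1.67 for SRP21, -1.63 for FYV6 and -1.61 for UTP11. In the other direction it was 2.11 for DHH1, 1.90 for DED1, 1.79 for SPE1, 1.75 for AI5_ALPHA, 1.65 for OLI1, 1.65 for IDP1, 1.61 for SRO9 and 1.54 for KRE6.

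The strain difference with MMS differed between G1 and S in 21 genes by the same kind of test. The difference, G1 minus S, was -0.85 for FAP7, -0.81 for COX17, -0.78 for MRP21, -0.77 for RPC17, -0.61 for CWC24 and -0.52 for SSF1. It was 1.27 for OLI1, 1.14 for HXT6, 1.12 for SUN4, 0.93 for HXT2, 0.85 for DDR2 and 0.80 for MEP2. No group held enough arrays to test a single array as an outlier.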

How the results depend on the processing

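The 422 genes called between the strains became 1193 with the replicate block, 658 with the closed loop of G1 comparisons and 1484 with both. They became 55 from the G1 arrays alone, 41 from the strain arrays alone, 266 and 193 from the first and last spot, and 106 with array weights. Leaving out an array gave 61 to 155, or 485 to 793 with the block. The 1084 genes called between MMS and untreated became 2039 with the replicate block, 678 from the G1 arrays and 638 from the strain arrays, and 729 to 802 without an array of the comparison, 1624 and 1757 with the block as well, and 603 to 658 without an untreated array. The 21 genes called between G1 and S became 470 with the replicate block and 160 after scaling to one spread, but 9 after centring and 2 from the last spot. The count was 0 from the strain arrays (436 at an unadjusted p under 0.05), from the first spot (503), with trend and robust moderation (589), with array weights (366) or with the length trend removed (559). Without either array of G1 or of S it was 0 (464 to 652 at an unadjusted p under 0.05), against 89 and 320 with the block and without array 1 or array 2. The fits on fewer arrays have fewer residual degrees of freedom; the cause of the other shifts was not tested. The block changed no fold change, and its pairing of arrays rests on the replicate numbers, which coincide with the dye orientation.

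Of the 142 named genes called between the strains, 104 lost their call from the G1 arrays alone, 111 from the strain arrays alone, 85 with array weights, 106 without array 1 and 83 without array 2 (38 and 25 with the block). From the first or last spot 46 and 58 lost it, and with the length trend removed 36; from 3 to 9 did with the arrays scaled or centred or with trend and robust moderation, and none with the block or the closed loop. None changed sign, which leaving out an array without the block could not bring about, since called genes lay on one side of 0 on both arrays. Of the 63 named genes not called, 35 changed sign. With the arrays centred the value was -0.011 for ASH1, and from the first spot the values were ASH1 -0.011, DGA1 -0.030 and EAF3 -0.11. From the last spot the values were BI4 0.033, COX3 -0.0061, HUG1 0.028, HXT2 -0.020 and TRP1 0.016. With the length trend removed they were ASH1 -0.045, BI2 -0.025, COB -0.084, COX2 0.042, HUG1 0.15 and TRP1 0.080. In the closed loop, with and without the block, they were DGA1 -0.0035 and TRP1 0.015. With either array left out the values ran for ACT1 -0.61 to 2.27, AGA1 -0.81 to 3.08, ARP4 -0.13 to 0.064, ASH1 -0.21 to 0.22, ATP6 -0.082 to 0.15, BI2 -0.051 to 0.11, BI3 -0.27 to 0.10, BI4 -0.058 to 0.0084, CTT1 -0.016 to 0.25, DGA1 -0.13 to 0.16, EAF3 -0.23 to 0.29, FUS1 -0.67 to 1.43, GPD1 -2.88 to 1.92, HSP12 -0.14 to 0.51, IME1 -0.058 to 0.23, IME2 -0.53 to 0.24, LEU2 -0.15 to 0.62, MF(ALPHA)1 -0.063 to 0.43, PMA1 -0.20 to 3.05, RAD30 -0.27 to 0.25, REV1 -0.44 to 0.15, REV3 -0.41 to 0.058, RNR1 -0.16 to 0.46, RPL31A -2.09 to 0.49, RPL39 -1.99 to 0.13, STE2 -0.70 to 1.98, SWC4 -0.44 to 0.32, TDH3 -0.56 to 2.99, TRP1 -0.17 to 0.15 and URA3 -0.55 to 0.30. With the block and without array 1 they were AGA1 -0.29, DGA1 -0.079, FUS1 -0.51, HSP12 -0.12, LEU2 -0.077, RAD30 0.035, STE2 -0.48, SWC4 0.076 and URA3 0.056. With the block and without array 2 they were ARP4 0.14, ASH1 -0.18, ATP6 -0.019, BI4 0.00095, COX2 0.012, COX3 -0.0034, EAF3 -0.15, GPD1 1.54, HUG1 0.067, RNR1 -0.058 and TRP1 0.14. The cause was not tested.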
